A study of Mus musculus with 14 samples.

Results

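The genes that encode the NF-κB subunits and the IκB proteins were described in wounded mouse fibroblasts with and without micrograft treatment. All rows of the deposited tables with the symbols Nfkb1, Nfkb2, Rela, Relb, Rel, Nfkbia, Nfkbib, Nfkbie, Nfkbiz or Bcl3 were taken, which gave 10 of the 43472 genes listed in each of the 2 tables. The cells were primary fibroblasts grown from the tail tips of C57BL/6 mice in medium with 10% FBS, and in all groups the cell layer was scratched. They were either left untreated or given AMG (autologous micrograft), which is here the soluble, filtered fraction of disaggregated mouse skin, depleted of cells and diluted in growth medium. Poly(A) RNA was sequenced from 14 libraries. One table held replicate 1, with 1 Untreated and 1 AMG-treated library at each of 1 h, 5 h, 12 h and 24 h (8 libraries). The other table held replicates 2 to 4 at 5 h only (6 libraries, 3 per group), and all tests below rest on these unless stated. The 2 tables were normalised separately, so that levels were compared only within a table. The labels do not say whether cultures with different replicate numbers came from different animals, and p-values then measure the spread between these libraries, which may be technical.

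NF-κB is a family of dimeric transcription factors that drive inflammatory and survival genes in most tissues, including skin. Rela, Relb and Rel encode subunits with a transactivation domain, whereas Nfkb1 and Nfkb2 encode long precursors that are processed to the DNA-binding partners of those subunits. In resting cells the dimers are held in the cytoplasm by the classical inhibitors IκBα (Nfkbia), IκBβ (Nfkbib) and IκBε (Nfkbie). Ligands such as interleukin-1 or tumour necrosis factor lead to phosphorylation and degradation of these inhibitors, and the released dimers enter the nucleus. Many of the genes that the dimers then switch on, Nfkbia among them, encode inhibitors of the pathway. Nfkbiz (IκBζ) and Bcl3 encode nuclear members of the IκB family, which bind NF-κB dimers on DNA and change which target genes are transcribed. What is given here are RNA levels, which hold no information on where the proteins were or how much of them there was.

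The number of reads assigned to genes lay between 12545537 and 34696529 per library in replicates 2 to 4 and between 13818438 and 27410213 in replicate 1. In 2 libraries of replicate 1, ribosomal protein genes took a larger share of the normalised counts, 6.405% in Untreated cells at 5 h and 4.679% in AMG-treated cells at 1 h against 2.075 to 3.151% in the other 12 libraries. Over all libraries 3 reads were worth 1.62 to 5.22 on the normalised scale. All 8 fibroblast markers, collagens and stromal receptors among them, were present in replicates 2 to 4. Their summed normalised counts were 344719 to 497137 in the Untreated and 252808 to 334815 in the AMG-treated libraries. Single markers differed in level and spread. Col1a1 ran from 130390 to 278572 over these libraries, Thy1 from 1068 to 14712 and Lum from 219 to 6374. None of the 8 passed the limma test between the groups, against 0.97% of all genes higher and 0.267% lower. With the replicate number as a block 6 passed, counted in either direction, against 17.9% of all genes higher and 19.3% lower. Of 8 keratinocyte markers, Krt5, Krt14, Krt1 and Dsg3 had 0 reads in all 6 libraries, and Krt10 had normalised counts of 15.3 to 52.2. The keratinocyte list summed to 25.1 to 74.6 in Untreated and 28.7 to 58.5 in AMG-treated libraries. Among 5 endothelial markers Emcn had 0 reads and Tek ran from 0 to 226. The endothelial list summed to 15.7 to 238 in Untreated and 7.63 to 115 in AMG-treated libraries. Of 10 leukocyte markers Cd3e had 0 reads, whereas Lyz2 (76.6 to 978) and Csf1r (59.8 to 182) were present in all 6 libraries. The leukocyte list summed to 167 to 1392 in Untreated and 212 to 1248 in AMG-treated libraries. The part of the small non-fibroblast signals in the results below was not tested.

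Promoter sequences are shown because 9 of the 10 genes were higher after treatment at 5 h, with Rel for contrast, and because κB sites are the sequences that NF-κB dimers bind. RefSeq promoters of the GRCm38.p6 build, which run from 250 bases before to 50 bases after a transcription start site, were listed for 7 of the 10 genes. Nfkb1, Relb and Nfkbiz had no entry. The κB consensus, a motif of 10 letters, was searched on both strands and was present in 4.51% of all 32851 promoters. Of the 9 promoters listed for these genes, 3 of them for Nfkb2, 7 held a match. These belonged to 5 of the 7 genes, Nfkb2, Rel, Nfkbia, Nfkbie and Bcl3, and no match was found for Rela and Nfkbib. The windows of Nfkb2 start sites 2 and 3 overlap and share the match of the lower Nfkb2 sequence below. Further matches of Nfkb2 are not printed. Each sequence is written 5′ to 3′ on the strand of its gene, with the matching letters in capitals. The capitals of Rel and of the upper window of Nfkb2 span overlapping matches.
Nfkbia, chr12:55492648-55492751, minus strand: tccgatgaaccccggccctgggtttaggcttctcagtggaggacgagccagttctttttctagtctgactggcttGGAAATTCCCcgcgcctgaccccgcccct
Nfkbie, chr17:45555519-45555678, plus strand: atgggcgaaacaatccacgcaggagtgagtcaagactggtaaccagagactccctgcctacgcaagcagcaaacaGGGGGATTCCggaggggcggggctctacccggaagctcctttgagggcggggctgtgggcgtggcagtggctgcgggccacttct
Nfkb2, chr19:46304688-46304717, plus strand: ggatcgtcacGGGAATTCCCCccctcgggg
Nfkb2, chr19:46305695-46305724, plus strand: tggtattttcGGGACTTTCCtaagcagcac
Bcl3, chr7:19822734-19822763, minus strand: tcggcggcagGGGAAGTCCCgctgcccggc
Rel, chr11:23770977-23771136, minus strand: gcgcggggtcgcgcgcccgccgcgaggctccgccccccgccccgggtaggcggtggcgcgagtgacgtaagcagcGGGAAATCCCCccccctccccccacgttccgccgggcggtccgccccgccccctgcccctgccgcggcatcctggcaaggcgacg
The match began 29 bases before the start site of Nfkbia, 106 bases before that of Nfkbie and 92 bases before that of Rel. In Nfkb2 the upper window began its match 39 bases before the first of 3 listed start sites, and in Bcl3 the match lay just inside the transcript. A match describes the letters of the window only. Rel, which held a match, was the gene of the 10 that was not higher after treatment at 5 h, and Rela and Nfkbib, which held none in these windows, were among the 9 that were higher in all 3 pairs.

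At 5 h the RNA of most of the family was higher in AMG-treated than in Untreated fibroblasts. In replicates 2 to 4, 8 of the 10 genes rose and 0 fell in the limma test across 13096 genes (Benjamini-Hochberg adjusted p under 0.05), whereas 0.97% of all genes tested rose and 0.267% fell. The genes that rose were Nfkb1, Nfkb2, Relb, Nfkbia, Nfkbib, Nfkbie, Nfkbiz and Bcl3. In bulk RNA a change in the number of cells of a type and a change in RNA per cell cannot be told apart. At an unadjusted p under 0.05 0 of the 10 genes were lower with limma, edgeR or DESeq2, and 1, Rel, was lower with limma and the replicate number as a block. The median log2 fold change was 1.66 over the 10 genes and −0.02 over all genes tested. It was 1.50 over the 5 subunits and 2.22 over the 5 IκB genes. With the replicate block, Rela passed as well, so that 9 rose and 0 fell, against 17.9% and 19.3% of all genes. For 9 genes, all but Rel, the lowest treated value was above the highest untreated value, a separation shared by 15.1% of all genes tested. The count of 8, from the fit without the replicate block, depended on single libraries. All fits with a library left out were made without the block. It was 0 without the AMG-treated library of replicate 2 or of replicate 4, and 1 (Nfkbiz) without any one of the Untreated libraries. It was 9 without the AMG-treated library of replicate 3. Over all genes, 127 were higher in the full fit, and 1 and 6 without the AMG-treated libraries of replicates 2 and 4. Without the Untreated libraries of replicates 2, 3 and 4 the all-gene counts were 10, 41 and 9. Without the AMG-treated library of replicate 3 the all-gene count was 1146. The AMG-treated library of replicate 3 had the lowest of the 3 treated values for each of the 9 genes that were higher.

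**Figure D1:**
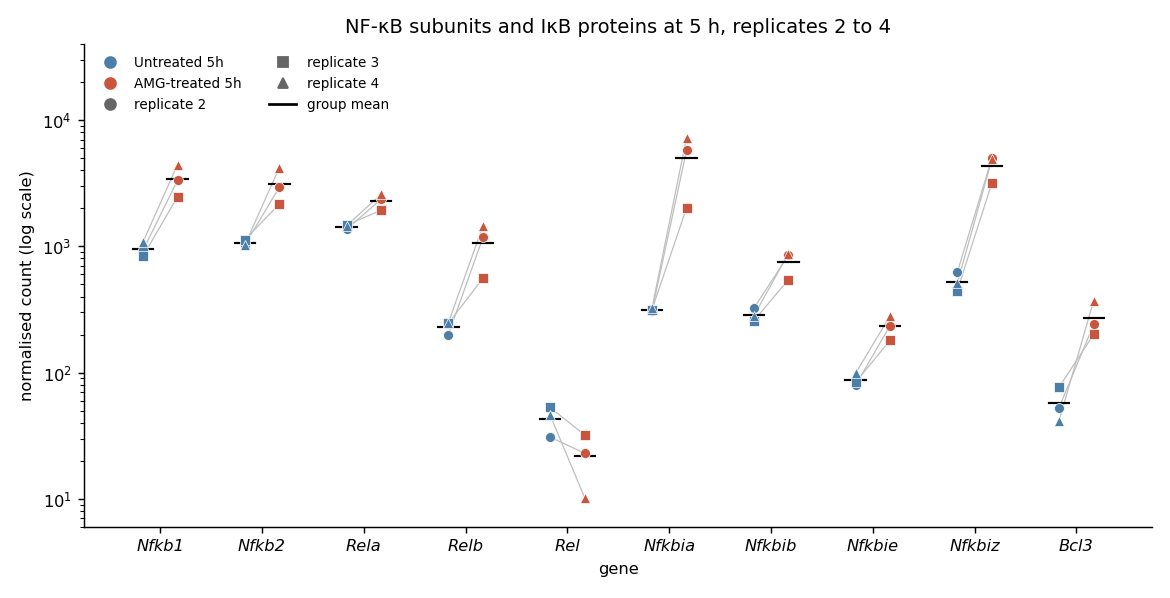
Normalised counts (log scale) of the 10 genes in the 3 Untreated and 3 AMG-treated libraries at 5 h, replicates 2 to 4. Grey lines join libraries of the same replicate number and black bars are group means. The groups overlap for Rel and are apart for the other 9 genes, and the square of replicate 3 is the lowest treated point in each of those 9.

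Among the subunits, Nfkb1 encodes the p105 precursor of p50. Its normalised counts were 926, 835 and 1078 in the Untreated libraries of replicates 2, 3 and 4 and 3335, 2467 and 4440 in the AMG-treated libraries. All treated values were more than the highest untreated value, and the log2 fold change was 1.82 ± 0.23 (SE, n = 3 per group, limma adjusted p = 0.0211), which is 3.52-fold. Nfkb2, which encodes the p100 precursor of p52 in the non-canonical pathway, had normalised counts of 1026, 1128 and 1020 in Untreated and 2928, 2159 and 4198 in AMG-treated libraries. Its log2 fold change was 1.50 ± 0.24 (limma adjusted p = 0.0414). On the mm10 genome Nfkb1 lies at chr3:135584655-135691547 on the minus strand and Nfkb2 at chr19:46304320-46312385 on the plus strand. Nfkb1 overlaps the gene model Gm43430 on the same strand, and Nfkb2 overlaps Psd on the opposite strand. The strand setting of the counting was not stated, so that reads shared with these neighbours could not be told apart.

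Rela, at chr19:5637483-5648130, encodes p65, the transactivating subunit of the most common dimer. It had normalised counts of 1365, 1475 and 1454 in Untreated and 2358, 1927 and 2582 in AMG-treated libraries. The groups did not overlap, but with a log2 fold change of 0.67 ± 0.14 the gene missed the threshold (limma adjusted p = 0.0740). It passed with the replicate block at the same fold change (limma adjusted p = 0.00214). Relb encodes the partner of p52 in the non-canonical pathway and lies at chr7:19606217-19629438. Its normalised counts were 199, 245 and 248 in Untreated and 1176, 557 and 1449 in AMG-treated libraries. The value of treated replicate 3 was far below the other treated values and still above all untreated values. The log2 fold change of Relb was 2.09 ± 0.35 (limma adjusted p = 0.0491).

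Rel, at chr11:23736847-23770970, encodes c-Rel, a subunit best known from lymphocytes and other leukocytes. Its normalised counts were 30.8, 52.9 and 46.0 in Untreated and 22.9, 32.0 and 10.2 in AMG-treated libraries. Each treated value was below the untreated value of the same replicate, but the groups overlapped. The log2 fold change was −1.06 ± 0.50 (limma adjusted p = 0.252). With the replicate block it was not past the threshold either (limma adjusted p = 0.0553). These values rest on 9 to 85 reads per library, and the difference was largest in replicate 4, with 85 untreated and 9 treated reads. Without the AMG-treated library of replicate 4 the log2 fold change was −0.62. Summed leukocyte markers were 269, 167 and 1392 in the Untreated and 218, 212 and 1248 in the AMG-treated libraries of replicates 2, 3 and 4, so that both libraries of replicate 4 stood apart from the others.

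Of the classical inhibitors, Nfkbia had the largest difference of the 10 genes. Nfkbia lies at chr12:55489410-55492647 and encodes IκBα, which is resynthesised soon after NF-κB activation. Its normalised counts were 307, 315 and 322 in Untreated and 5746, 2006 and 7230 in AMG-treated libraries. The untreated libraries were nearly level and the treated ones were spread more than 3-fold, all far above them. The log2 fold change was 3.79 ± 0.44 (limma adjusted p = 0.0196), which is 13.9-fold. Nfkbib, which encodes IκBβ, had normalised counts of 322, 256 and 280 in Untreated and 847, 543 and 874 in AMG-treated libraries. Its log2 fold change was 1.37 ± 0.22 (limma adjusted p = 0.0438). Nfkbib, at chr7:28758251-28767512, overlaps Sirt2 and Ccer2 on the opposite strand. Nfkbie, at chr17:45555703-45563169, encodes IκBε, which is also made anew after activation but is known to follow IκBα. It had normalised counts of 79.2, 83.5 and 98.4 in Untreated and 235, 180 and 281 in AMG-treated libraries. The groups were apart, and the log2 fold change of 1.39 ± 0.23 was just past the threshold (limma adjusted p = 0.0497). With a pseudocount of 10 in place of 1 it was just short of it (limma adjusted p = 0.0507).

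Both nuclear members rose. Nfkbiz, at chr16:55811375-55838899, encodes IκBζ, which is needed for a set of secondary NF-κB targets such as Lcn2. Its normalised counts were 623, 446 and 508 in Untreated and 5000, 3175 and 4890 in AMG-treated libraries. The log2 fold change was 3.03 ± 0.22 (limma adjusted p = 0.00567), which is 8.18-fold and had the smallest adjusted p of the 10 genes. Bcl3, at chr7:19808462-19822770, encodes a partner of p50 and p52 homodimers. It had normalised counts of 52.8, 76.6 and 41.6 in Untreated and 240, 201 and 372 in AMG-treated libraries. Replicate 3 had the highest untreated and the lowest treated Bcl3 value, and its pair showed the smallest ratio. The log2 fold change of Bcl3 was 2.22 ± 0.33 (limma adjusted p = 0.0402). Bcl3 overlaps the antisense models Gm16175 and Gm16174.

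The pair of replicate 1 at 5 h was not used in these tests and is in the other table. There, treated over untreated on the log2 scale came to 2.78 for Nfkbia, 3.26 for Nfkbiz, 2.52 for Bcl3 and 2.63 for Nfkb1. It was 1.80 for Nfkb2, 1.71 for Relb, 2.89 for Nfkbie, 0.89 for Nfkbib and 1.11 for Rela, whereas Rel had −0.86. Thus 9 genes were higher in all 4 pairs at 5 h, as were 15.7% of the genes that averaged at least 10 in each table. Rel was lower in all 4 pairs, as were 16% of those genes. Over the 4 pairs Nfkbiz varied least among the genes with large ratios, at 3.09 ± 0.21 (SD, n = 4), and Nfkbia varied most, at 3.54 ± 0.95. When the 4 pairs were fitted together with edgeR on the recovered reads and the replicate as a block, 8 genes were called higher and 0 lower, against 2.45% and 1.23% of all genes. Rel had a log2 fold change of −1.01 in that fit (edgeR adjusted p = 0.194).

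**Figure D2:**
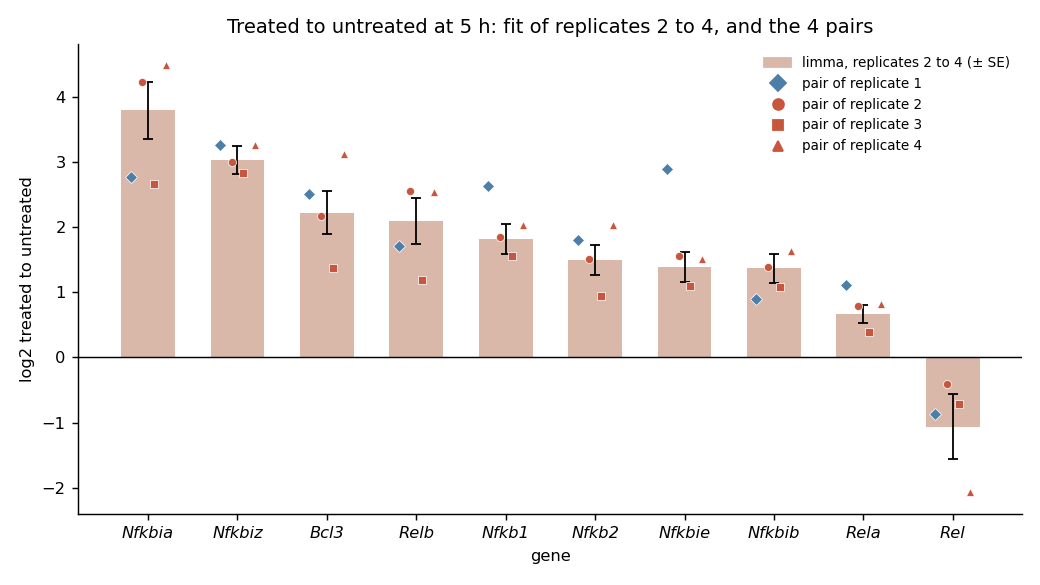
Log2 ratio of AMG-treated to untreated normalised counts at 5 h. Bars and error bars are the limma estimate ± SE from replicates 2 to 4, and symbols are the 4 pairs, with replicate 1 (diamonds) from the other table. All 4 symbols are above 0 for 9 genes and below 0 for Rel.

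To compare levels between genes, normalised counts were divided by the length of the longest protein-coding transcript in kb. In Untreated cells at 5 h (n = 3) Rela was the most abundant of the 10 at 527 ± 21.5 (SD) normalised counts per kb. Nfkb2 followed at 275 ± 15.7, then Nfkb1 at 230 ± 29.8 and Nfkbia at 199 ± 4.73, and the values of Nfkb1 and Nfkbia overlapped. Nfkbib (139), Nfkbiz (128) and Relb (104) formed a run in which neighbours overlapped. Nfkbie (35.8) and Bcl3 (30.8) overlapped too, and Rel was lowest at 5.79 ± 1.51 per kb. In AMG-treated cells Nfkbia led at 3165 ± 1706 per kb, and its lowest library was above the highest of the next gene, Nfkbiz, at 1058 ± 249. Nfkbiz, Rela (843), Nfkb1 (829), Nfkb2 (805), Relb (480) and Nfkbib (366) formed a run of overlapping neighbours. Bcl3 (146) and Nfkbie (95.4) came next and overlapped, and Rel was again last at 2.90 ± 1.47 per kb.

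Within the subunit RNA, the shares of the 5 genes did not overlap between the groups in replicates 2 to 4. Rela made up 46.1% ± 0.79 (SD, n = 3) of the length-scaled subunit RNA in Untreated and 29.2% ± 4.1 in AMG-treated cells at 5 h. Nfkb1 had 20.1% in Untreated and 28.0% in AMG-treated cells, and Nfkb2 had 24.1% and 27.0%. The share of Relb was 9.12% in Untreated and 15.7% in AMG-treated cells, and that of Rel was 0.504% and 0.114%. The ratio of Relb to Rela was 0.179, 0.204 and 0.209 in Untreated and 0.613, 0.356 and 0.690 in AMG-treated libraries. The groups did not overlap for this ratio either, and each share and the ratio gave an exact permutation p of 0.1 (two-sided), the smallest that 3 against 3 libraries allow. With replicate 1 added, some of these shares overlapped. Untreated replicate 1 at 5 h had a Relb share of 17.1%, above the 11.9% of treated replicate 3. This untreated library was the one with 6.405% ribosomal protein RNA. Shares were not corrected for the trend of ratios with transcript length given further below. The Nfkb2 share in treated replicate 1 at 5 h was 22.5%, below the untreated 24.5% and 25.3% of replicates 2 and 3, and at 1 h it was 21.0% in Untreated and 17.9% in AMG-treated cells. In replicates 2 to 4 the sum over the subunits was 1142 ± 47.9 per kb in Untreated and 2960 ± 826 in AMG-treated cells.

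In replicates 2 to 4 the ratio of inhibitor RNA to subunit RNA was higher in each treated library than in any untreated one. The classical inhibitors summed to 374 ± 13.8 normalised counts per kb in Untreated and 3626 ± 1814 in AMG-treated cells. Set against the subunit sum in the same library, the ratio was 0.352, 0.309 and 0.322 in Untreated and 1.39, 0.756 and 1.36 in AMG-treated libraries. The share of Nfkbia in the classical inhibitor RNA was 53.4% ± 2.5 in Untreated and 85.4% ± 5.6 in AMG-treated cells. The nuclear members Nfkbiz and Bcl3 together had 159 ± 18.5 per kb in Untreated and 1205 ± 282 in AMG-treated cells. None of these groups overlapped in replicates 2 to 4 (exact permutation p = 0.1 each, the smallest possible, n = 3 per group). In the replicate 1 pair at 5 h the ratio of classical inhibitors to subunits was 0.807 in the Untreated library, which is above the value of treated replicate 3, and 1.35 in the AMG-treated library. That Untreated library had a raised share of ribosomal protein RNA, and the ratio was not corrected for the trend with transcript length. The part of this in the value was not tested.

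**Figure D3:**
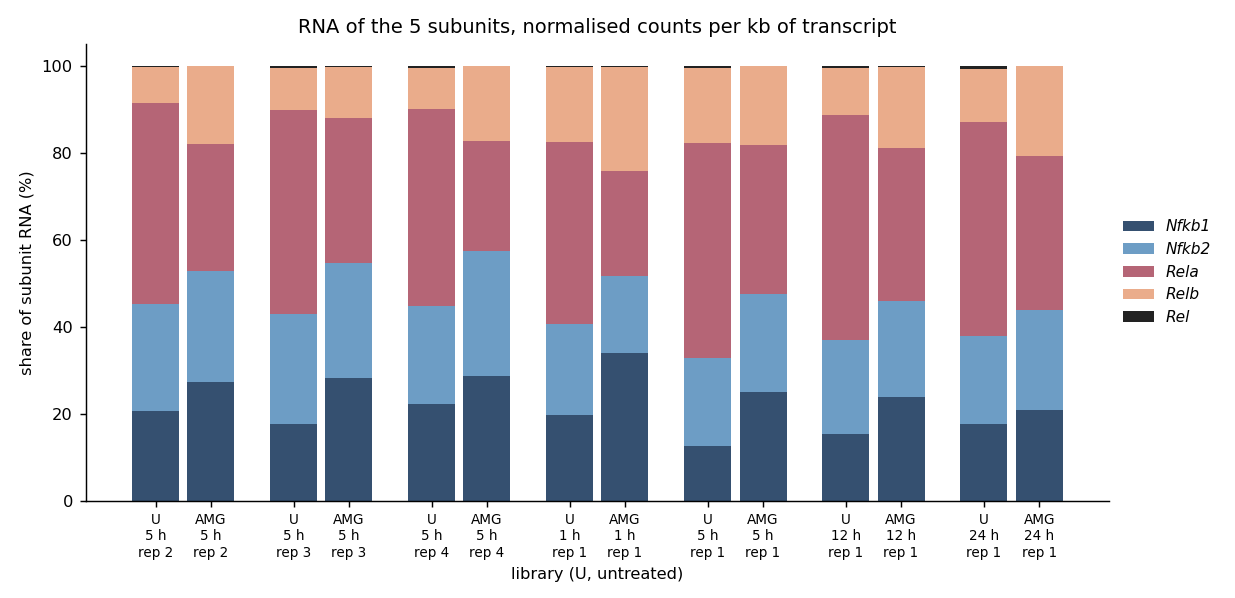
Share (%) of each subunit in the length-scaled subunit RNA (normalised counts per kb of transcript) in all 14 libraries, with 1 bar per library and untreated (U) and AMG-treated bars side by side. Rela takes 45.3 to 46.9% in the untreated bars of replicates 2 to 4 and 25.2 to 33.4% in the treated bars.

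The time course of replicate 1 asked how long the difference lasted. It has 1 library per point, so that no test was made, and the intervals given are exact 95% binomial intervals of the fold that cover counting error only. A log2 ratio past 1 was used as the mark of a difference. At 1 h 7 genes were past it and higher, against 11.3% of 13498 genes, and at 5 h 8 genes against 13.3%. At 12 h it was 5 genes against 5.93%, and at 24 h 5 genes against 6.05%. Rel at 24 h was the only value of the 40 past −1, against 8.05% of genes at that time. At 1, 5 and 12 h 0 of the 10 genes were past −1, against 10.7%, 12.6% and 6.9% of all genes. Over all 7 pairs 9 of the 10 genes were higher in each pair, as were 5.36% of genes.

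Nfkbia had its largest value at 1 h. Its normalised counts in Untreated and AMG-treated cells were 738 and 15590 at 1 h, 890 and 6101 at 5 h, 438 and 3043 at 12 h, and 423 and 4319 at 24 h. The fold was 21.1 (19.7 to 22.7) at 1 h and 10.2 (9.35 to 11.2) at 24 h, with lower values between. Nfkbiz had 1212 and 11836 at 1 h, 423 and 4049 at 5 h, 432 and 4789 at 12 h, and 647 and 5292 at 24 h. Its untreated and treated levels were both highest at 1 h, and its fold stayed between 8.18 and 11.1 at all 4 times. Bcl3 had 190 and 725 at 1 h, 52.5 and 305 at 5 h, 227 and 440 at 12 h, and 381 and 754 at 24 h. The untreated level of Bcl3 was lowest at 5 h and highest at 24 h, and the fold was 5.81 (4.05 to 8.61) at 5 h and 1.98 (1.77 to 2.21) at 24 h.

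The remaining inhibitors had ratios that were smaller at the later times. Nfkbie had log2 ratios of 2.19, 2.89, 0.71 and 0.37 at 1, 5, 12 and 24 h. Its untreated value at 5 h, 34.4, rests on 21 reads, and the other untreated values lay between 106 and 108. Nfkbib had log2 ratios of 1.77, 0.89, 0.38 and 0.60, with 410 and 1400 normalised counts at 1 h and 306 and 464 at 24 h in Untreated and AMG-treated cells.

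Among the subunits, Relb had nearly the same log2 ratio at all times, 1.62, 1.71, 1.75 and 1.68 at 1, 5, 12 and 24 h. Its levels in AMG-treated cells were 2153, 1331, 994 and 1120 and in Untreated cells 700, 405, 295 and 348, so that both series were lower after 1 h. Nfkb1 had log2 ratios of 1.92, 2.63, 1.59 and 1.18, with 1506 and 5700 normalised counts at 1 h and 924 and 2102 at 24 h. Nfkb2 had ratios of 0.91, 1.80, 1.02 and 1.13, and Rela had 0.34, 1.11, 0.41 and 0.47. For both the largest ratio was at 5 h, where the untreated level of each was the lowest of the 4 times. The share of Relb in the length-scaled subunit RNA was 17.1% in Untreated and 23.8% in AMG-treated cells at 1 h, 17.1% and 18.1% at 5 h, 10.9% and 18.8% at 12 h, and 12.3% and 20.6% at 24 h.

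Rel had normalised counts of 55.4 in Untreated and 110 in AMG-treated cells at 1 h, 45.9 and 24.8 at 5 h, 50.5 and 36.2 at 12 h, and 62.8 and 24.3 at 24 h. It was thus higher in treated cells at 1 h only. At 1 h each library had 63 reads of Rel, and the fold of 1.98 (1.37 to 2.85) is set by the size factors of the libraries. The fold was 0.539 (0.315 to 0.930) at 5 h, 0.717 (0.470 to 1.08) at 12 h and 0.387 (0.241 to 0.604) at 24 h. Summed leukocyte markers were 1402 in Untreated and 1247 in AMG-treated cells at 1 h, 1936 and 534 at 5 h, 1189 and 521 at 12 h, and 1156 and 390 at 24 h. These sums were lower in treated cells at all 4 times. Their part in the Rel values was not tested.

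In the replicate 1 pairs at 1 and 5 h, which hold the libraries with more ribosomal protein RNA, the log2 ratio over genes varied with transcript length. Spearman correlations across genes, which are not independent replicates, were −0.52 at 1 h and 0.49 at 5 h, and between −0.44 and 0.18 in the other 5 pairs. Removing this trend from the ratios turned the sign of none of the 40 values and moved 13 of them out of their counting interval. With it removed, Nfkbia was at 3.96 at 1 h and 3.18 at 5 h, Nfkb1 at 2.23 and 2.35, and Rel, with the longest transcript of the 10, at 1.51 and −1.50 on the log2 scale. In replicates 2 to 4 the same correction made the difference of Rel smaller, from −1.06 to −0.75 (limma adjusted p = 0.377). With the replicate block the limma adjusted p was then 0.148. The corrected Rel ratio of the replicate 2 pair was −0.07. The part of RNA quality in these values was not tested.

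**Figure D4:**
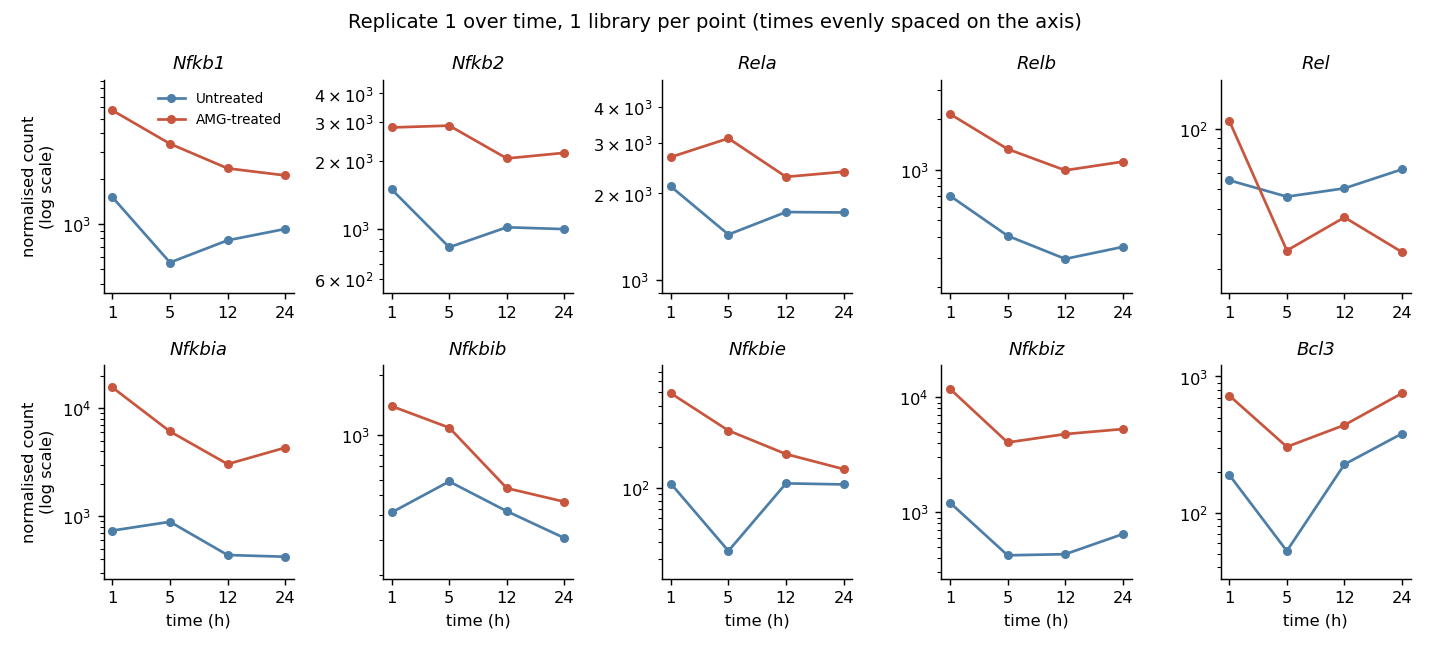
Normalised counts (log scale, separate for each gene) of the 10 genes in Untreated and AMG-treated cells of replicate 1 at 1, 5, 12 and 24 h, with 1 library per point and the times evenly spaced on the axis. The treated line is above the untreated line throughout for 9 genes, and for Rel the lines cross between 1 and 5 h.

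Around these genes, 88 further genes of the pathway were followed in 7 lists, of which 83 could be tested at 5 h in replicates 2 to 4. In all 14 rose and 0 fell in the limma test, against 0.97% and 0.267% of all genes tested. At an unadjusted p under 0.05 3 were lower, and edgeR and DESeq2 on the recovered reads called 0 lower. Of the 83, 62 were above 0, against 48.4% of all genes tested. Their median log2 fold change was 0.49, against −0.02 over all genes tested. Genes that passed the minimum mean of 10 only through their treated libraries, such as Traf1 of the feedback list, had to lie above 0. With the replicate block 44 rose and 7 fell, against 17.9% and 19.3% of all genes, and the block counts of each list below are to be read against these shares. Without the AMG-treated library of replicate 2 the limma count of 14 was 0, and without that of replicate 3 it was 36. Over all genes 1 and 1146 were higher in those fits. The 14 genes were 1 ligand, 1 receptor, 3 feedback inhibitors and 9 target genes.

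Of 9 ligand genes 5 were tested and 1 rose, or 4 with the replicate block, with a median log2 fold change of 2.49. Tnf, Il1a and Il33 had untreated means of 1.26, 0.18 and 3.2, below the minimum mean of 10. They were tested only because of their treated libraries, so the ligand counts, tests and median are partly set by this filter. The gene that rose was Il1a, which encodes interleukin-1α. It had at most 1 read in any Untreated library and normalised counts of 27.1 to 193 in AMG-treated libraries (limma adjusted p = 0.0266). Of 11 receptor genes 1 rose, or 5 with the block and 1 fell, with a median of 0.31. Cd40, a receptor of the non-canonical pathway, had 9.90 to 11.4 normalised counts in Untreated and 98.4 to 323 in AMG-treated libraries (log2 fold change 4.09 ± 0.47, limma adjusted p = 0.0190).

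The lists of adaptors, kinases and IκB turnover held no gene past the limma threshold. Over all genes 3021 of 13096 had an unadjusted p under 0.05 with limma. DESeq2 called 670 of 13659 genes higher and 466 lower, and edgeR called 120 of 12961 higher and 32 lower. The counts of these lists are to be read against those numbers. Of 14 adaptor genes 0 were called by limma, 4 had an unadjusted p under 0.05, and edgeR called 0 and DESeq2 1. The adaptors with the highest level were Irak1, at −0.41 ± 0.24, and Rbck1, at −0.02 ± 0.11 on the log2 scale. With the block 3 adaptors rose and 2 fell, among the latter Irak1 (limma adjusted p = 0.0180), which is near the shares of 17.9% and 19.3% over all genes. Of 11 kinase genes 0 were called by limma, 3 had an unadjusted p under 0.05, and edgeR called 0 and DESeq2 2, whereas with the block 2 rose and 1 fell, which is near or below the shares over all genes. Ikbkg, which encodes the regulatory subunit NEMO of the IκB kinase, had 2115 ± 251 normalised counts in Untreated and 2102 ± 102 in AMG-treated cells. Tab2, an adaptor of the kinase TAK1, had a log2 fold change of −0.03 ± 0.13. Of 11 genes for the turnover of IκB and for related IκB proteins 0 were called by limma, 4 had an unadjusted p under 0.05, and edgeR called 0 and DESeq2 1. With the block 4 of them rose and 1 fell. Skp1a, a subunit of the ubiquitin ligase that marks IκB, and Ube2d3, an E2 enzyme, each had a log2 fold change of 0.11.

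Of 12 feedback genes 11 were tested and 3 rose, with a median log2 fold change of 1.00. With the block 8 rose and 1 fell. Zc3h12a, which encodes the RNase Regnase-1, had 210 ± 32.2 normalised counts in Untreated and 2603 ± 868 in AMG-treated cells (log2 fold change 3.59 ± 0.25, limma adjusted p = 0.00567). Tnfaip3, which encodes the ubiquitin-editing enzyme A20, had 173 ± 20.2 and 1428 ± 768 (limma adjusted p = 0.0273), and the ubiquitin ligase gene Birc3 had 250 ± 21.7 and 795 ± 248 (limma adjusted p = 0.0402). The log2 ratio of Tnfaip3 in replicate 1 was 5.42, 4.12, 1.14 and 1.69 at 1, 5, 12 and 24 h, set beside 4.40, 2.78, 2.79 and 3.35 for Nfkbia.

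Of 20 target genes 9 rose, or 18 with the block and 1 fell, with a median log2 fold change of 3.03. The largest were the chemokine genes Ccl20 (9.20 ± 1.00), Cxcl2 (9.13 ± 0.95) and Cxcl1 (7.58 ± 0.49) and the nitric oxide synthase gene Nos2 (8.36 ± 0.67), on the log2 scale of normalised counts plus 1. Cxcl1 had 47.3 ± 14.5 normalised counts in Untreated and 10267 ± 6085 in AMG-treated cells (limma adjusted p = 0.00567). Ccl20 and Cxcl2 each had a limma adjusted p of 0.0190 and Nos2 one of 0.00958. Untreated means of Ccl5, Ccl20, Il6, Nos2 and Cxcl10 were 8.17, 8.99, 9.63, 3.02 and 9.6, below the minimum mean of 10. These genes were tested only because of their treated libraries, so the target counts, tests and median are partly set by this filter. Nos2 had at most 6 reads in an Untreated library, so that its fold depends on the value of 1 added before taking logs. Ccl20 and Cxcl2 were low in Untreated libraries as well, at 2.70 to 18.7 and 5.57 to 26.4 normalised counts. The log2 fold change ran over the alternatives from 8.02 to 10.3 for Ccl20 and from 8.32 to 10.2 for Cxcl2.

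**Figure D5:**
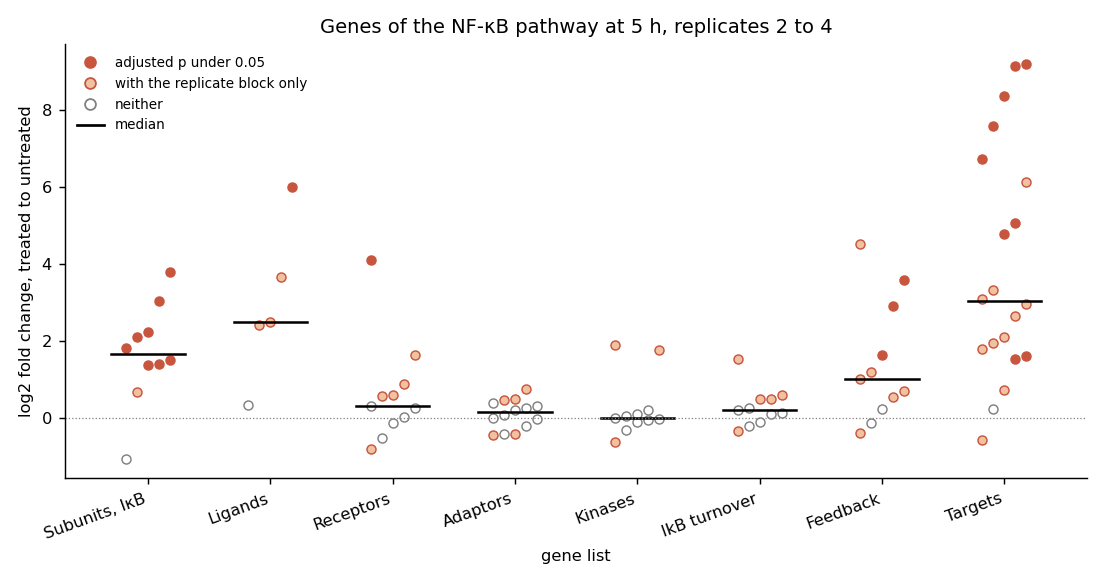
Log2 fold change (AMG-treated to untreated, 5 h, replicates 2 to 4) of the 10 subunit and IκB genes and of the 83 tested genes of the 7 pathway lists, with 1 point per gene and the list median as a bar. Filled points passed the limma test, pale points passed with the replicate block only, and the medians run from −0.003 for kinases to 3.03 for targets.

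For the 3 genes with the largest median ratio over the 7 pairs, the genes with the most similar pattern were searched among 12834 genes, by the root mean square difference of the 7 log2 ratios. Nfkbia was closest to Ier3, an immediate early gene, at a difference of 0.58, then to Zc3h12a at 0.72 and to Nod2, which encodes a sensor of bacterial cell walls, at 0.72. Nfkbiz was closest to Nod2 at 0.37, to Ereg, which encodes the growth factor epiregulin, at 0.44, and to Zc3h12a at 0.44. Zc3h12a and Nod2 were thus on both lists at a pseudocount of 1. Bcl3 was closest to Tnfsf11, which encodes the ligand RANKL, at 0.36, to Errfi1, an inhibitor gene of the EGF receptor, at 0.45, and to the ubiquitin ligase gene Rnf19b at 0.47. With a pseudocount of 10 in place of 1, 2 of the 3 genes named for each of Nfkbia, Nfkbiz and Bcl3 stayed among its closest 3. The 7 ratios share their libraries for all genes, and likeness here describes these pairs only.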

How the data were processed

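Poly(A) RNA of 14 libraries was sequenced as 50 bp single-end reads. Per the labels and the study's methods, the authors checked reads with FastQC 0.11.5, mapped them to mm10 with TopHat2 2.0.13, kept unique reads with SAMtools 0.1.19.24, counted them per gene with HTSeq 0.5.3p3 and divided counts by DESeq size factors. The annotation release and strand setting were not given in the sources used here. The deposited values are thus a signal, reads per gene over a size factor, and dividing by the smallest step of each library gave whole reads for 100% of values (tolerance 0.1).

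The 10 genes, the pathway and marker lists and the rule for named genes were chosen with earlier results of these data known. Named were the 10 genes, per pathway list up to 4 called genes by size of change (or, with none, the 2 with the highest level), and the 3 genes most similar to each of the 3 genes with the largest ratios. Samples were grouped by the labels. The test at 5 h was limma 3.58.1 (R 4.3.3) with an intensity trend on log2(normalised count + 1), replicates 2 to 4, genes with a mean of at least 10, and Benjamini-Hochberg adjustment over all of them. Fold changes are on this scale, which understates those of low genes. Replicate numbers paired the libraries: deviations from group means correlated at 0.65, 0.76 and 0.70 across genes for the same number and at −0.59 to 0.12 for different numbers. What same-numbered cultures have in common is not given in the labels. Alternatives were this replicate block, count tests of those whole reads with edgeR 4.0.16 and DESeq2 1.42.0, other pseudocounts, filters, scalings and a length correction, and leaving out each library. Replicate 1, normalised separately, has 1 library per point and was tested only in fits of all 4 replicates with a table or replicate term. Depth limits low genes such as Rel, and intervals cover counting error only. Gene positions and lengths came from an annotation of GRCm38, and promoters from RefSeq. The scripts were tested on simulated data. Share comparisons used an exact permutation test (scipy 1.17.1).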

Additional observations from a re-analysis of the deposited data

Results flagged for a closer look

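Rel was the result that differed in direction between time points. In replicate 1 at 1 h its log2 ratio of treated to untreated normalised counts was 0.97, with 63 reads in each library, whereas the 4 pairs at 5 h lay between −2.07 and −0.41. The difference between the times was not tested, as 1 h has 1 pair. The AMG-treated library at 1 h is one of the 2 with a raised share of ribosomal protein genes. With the length trend removed the ratio at 1 h was 1.51. A search of the 4 pairs at 5 h for a pair far from the others found 0 among the 10 genes.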

How the results depend on the processing

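All 199 log2 fold changes of the 10 genes at 5 h under the alternatives, and all 160 alternative values of the replicate 1 ratios, kept their sign, and no gene of the 10 was called lower under any alternative. The replicate block called 9 of the 10 genes higher in place of 8, adding Rela, and of the pathway genes 44 higher and 7 lower in place of 14 and 0. With the block, edgeR called 47 pathway genes higher and 7 lower, as did limma with a length correction. DESeq2 called 31 pathway genes higher, and edgeR with all 4 replicates and the block called 27. Limma without the intensity trend called 2 of the 10 genes higher, Nfkbia and Nfkbiz. Leaving out 1 library at a time, in limma without the block, gave 0 to 9 genes of the 10 higher, 0 to 36 pathway genes higher and 0 to 1 lower. Among the 10 genes, Nfkbiz passed in 18 of 20 alternatives and Nfkbie in 10. Over all genes 127 rose and 35 fell in the main limma test and 2345 and 2527 with the block, 670 and 466 with DESeq2, 338 and 170 with edgeR, all 4 replicates and the block, 56 and 24 without the trend, 1146 and 1053 without the AMG-treated library of replicate 3, and 1 and 0 without that of replicate 2. Why the counts moved was not tested, and the part of the smaller number of libraries when 1 is left out was not tested either. Rel could not be tested with a mean of at least 50, since its mean is lower. Depth limits Rel most, at 9 to 85 reads per library in replicates 2 to 4.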
